A study of Mus musculus with 6 samples.

Results

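The 9 genes described here, of 55450 genes counted in each library, are markers of the bile ducts and of liver progenitor cells. They were chosen by gene name, as Sox9, Spp1, Cd24a, Krt7, Krt19, Prom1, Epcam, Tnfrsf12a and Cd44, and each name matched 1 versioned identifier of the GENCODE M21 annotation. They were counted in bulk RNA-Seq libraries of primary hepatocytes from mice on a normal diet. The labels give the strain as C57BL/6 and the age as 10 to 12 weeks, while the study's methods describe C57BL/6J males and give a slightly younger age at surgery. Cells came from undamaged liver (0 h, 3 libraries) or from liver taken 48 h after partial hepatectomy (PHx, 3 libraries), an operation that cuts away most liver lobes. All 6 preparations were made by 2-step collagenase perfusion, in which the liver is digested through its vessels and hepatocytes are separated from the other cells. The 0 h livers were undamaged rather than sham-operated, so effects of surgery and of tissue loss cannot be told apart here.

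Cholangiocytes are the epithelial cells that line the bile ducts, and they share an embryonic precursor, the hepatoblast, with hepatocytes. SOX9 is a transcription factor of the ductal lineage, while keratin 7, keratin 19 and EPCAM (an epithelial adhesion molecule) are structural and surface markers of mature ducts. Osteopontin (Spp1), CD24, prominin-1 (Prom1, also called CD133) and CD44 mark ductal or progenitor cells in injured liver, although macrophages, leukocytes and other cells also make some of them. Tnfrsf12a encodes Fn14, the receptor of the cytokine TWEAK, which drives the expansion of ductal progenitor cells in injured liver. Hepatocytes in injured liver can take up part of this program, and the comparison asks which of its genes changed in hepatocyte preparations at 48 h after PHx.

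The markers separated into a group of genes with 29 or more reads in every library (Tnfrsf12a, Spp1, Sox9 and Cd44) and a group with at most 6 reads in any library of undamaged liver (Krt7, Krt19, Epcam, Prom1 and Cd24a). Tnfrsf12a, Spp1 and Prom1 were higher at 48 h, and the ductal markers Krt7, Krt19 and Epcam were at or near 0 at both time points. Gene counts summed to between 31419443 and 36346220 per library, so that 3 reads, the floor used for a single library, correspond to 0.0840 to 0.102 CPM. CPM here are read counts scaled to a common library size after TMM normalization, which rescales library totals so that most genes do not shift. Intervals and floors computed from reads cover counting error only, since the reads carry no molecular identifiers. In edgeR's quasi-likelihood test, 5 of the 9 genes had enough reads to be tested, 3 were called higher at an adjusted p under 0.05 and 0 were called lower. Over all 17037 genes tested, 21.4% were called higher and 19.3% lower. Of the 5 tested, 0 were lower at an unadjusted p under 0.05, and 0 were called lower by DESeq2 or limma-voom. A fit of edgeR with no filter, which took in all 9, also called 0 lower, and there Krt19, with 5 reads in all, had an unadjusted p of 0.0412 and an adjusted p of 0.136 toward lower. Of the 5, Prom1 passed the filter on low counts through its 48 h libraries alone and so had to differ to be tested.

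**Figure D1:**
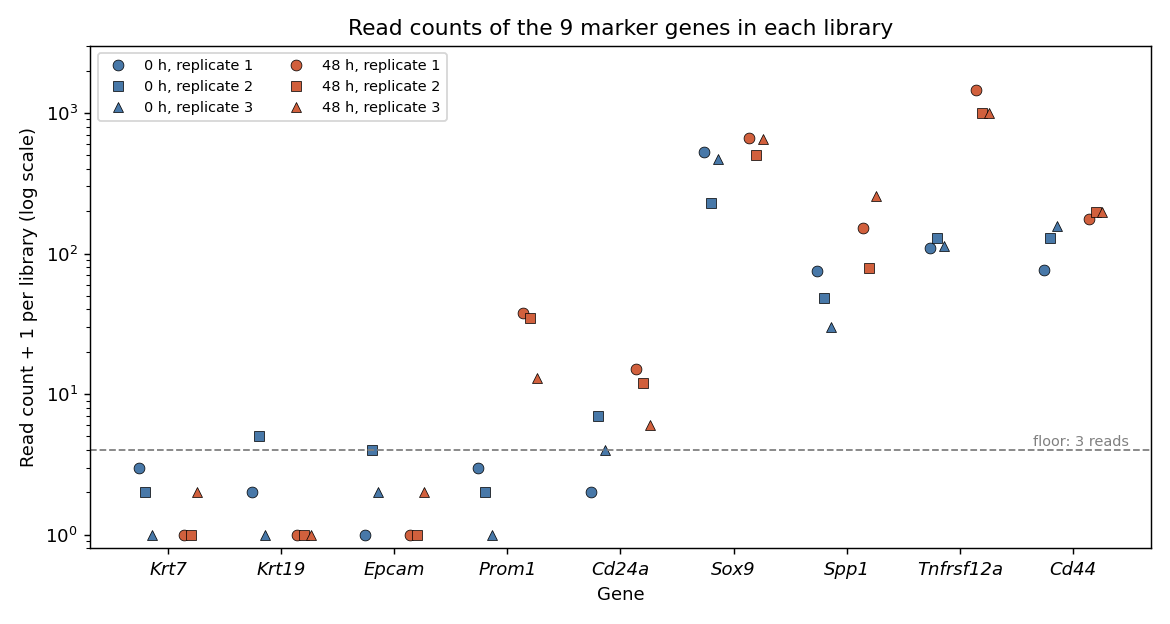
Read count plus 1 (log axis) of each of the 9 marker genes in the 3 libraries at 0 h (blue) and the 3 at 48 h after PHx (orange), with replicate 1 as circles, 2 as squares and 3 as triangles. The dashed line marks 3 reads, and Krt7 and Epcam lie on or under it in all 6 libraries, while Tnfrsf12a moves from 109 to 129 reads at 0 h to 994 to 1450 at 48 h.

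Tnfrsf12a (ENSMUSG00000023905.15; chromosome 17, 23675445 to 23677468, GRCm38, minus strand) had 109, 129 and 112 reads in replicates 1, 2 and 3 at 0 h and 1450, 994 and 1003 reads at 48 h. All 3 libraries at 48 h lay far above all 3 at 0 h, and 27.8% of the genes tested had all 3 above by any margin. Mean CPM were 3.75 ± 0.394 (SD, n = 3) before and 33.2 ± 8.58 (SD, n = 3) after PHx, 8.85 times as high. The edgeR test put the log2 fold change at 3.15 with a standard error of 0.193 and an adjusted p of 8.87e-07. By the size of its fold change it ranked 377 of the 17037 genes tested, counting from the largest increase. In CPM per kb of exon, the scale on which different genes can be compared, its mean stood at the 49.2 percentile of those genes at 0 h and at the 89.6 percentile at 48 h. Leaving out any 1 library gave log2 fold changes of 2.91 to 3.26.

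Prom1 (ENSMUSG00000029086.15; chromosome 5, 43993620 to 44102032, minus strand), the gene of a membrane glycoprotein of cell protrusions, had 2, 1 and 0 reads at 0 h and 37, 34 and 12 reads at 48 h. The undamaged livers were thus within the floor of 3 reads, and all 3 libraries at 48 h were above it. Pooled over the replicates and scaled by library, 83 reads against 3 gave a ratio of 24.8, with an exact 95% interval of 8.20 to 123 from counting error alone. The edgeR fit called the increase (adjusted p = 0.000872), but Prom1 passed the filter on low counts through its 48 h libraries alone. Its fitted log2 fold change of 4.48 (standard error 0.744) depends on how reads near 0 are stabilized. It was 3.89 to 5.37 with 1 of the 0 h libraries left out. At 48 h its abundance was 0.798 ± 0.401 (SD, n = 3) CPM, and its mean level per kb of exon was at the 4.48 percentile of the genes tested. A gene on the other strand, Gm16401, overlaps 5.91% of the exon bases of Prom1, and it had 0 to 7 reads per library.

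Spp1 (ENSMUSG00000029304.14; chromosome 5, 104435118 to 104441050, plus strand), the gene of the secreted matrix protein osteopontin, had 74, 47 and 29 reads at 0 h and 150, 78 and 256 reads at 48 h. The lowest library at 0 h and the highest at 48 h were each the one numbered 3, and in CPM the groups overlapped, since 2.52 in replicate 1 at 0 h exceeded 2.18 in replicate 2 at 48 h. Means of 1.64 ± 0.830 (SD, n = 3) and 4.65 ± 2.57 (SD, n = 3) CPM gave a log2 fold change of 1.51, with a standard error of 0.450 and an adjusted p of 0.0212 in edgeR's test. This call was lost in 3 of the 6 fits that left out 1 library, with log2 fold changes of 1.46 without 0 h replicate 2 (adjusted p = 0.068), 1.20 without 0 h replicate 3 (adjusted p = 0.0757) and 1.03 without 48 h replicate 3 (adjusted p = 0.0844). Prom1 no longer had enough reads to be tested once any 1 of the 48 h libraries was left out. The number of the 9 genes called higher was therefore 1 instead of 3 without 48 h replicate 3, and 2 without 0 h replicate 2 or 3 or 48 h replicate 1 or 2. Macrophages also make osteopontin, and the 11 Kupffer cell and macrophage markers summed to 82.7 to 124 CPM at 0 h and 119 to 146 CPM at 48 h. Of these markers 3 were higher (Marco, Cd5l and Cd68), 0 were lower at an adjusted p under 0.05, and each was read in every library. Their part in the result for Spp1 was not tested. Gm42793 on the same strand overlaps 18.8% of the exon bases of Spp1, where reads may not have been assigned to either gene, and it had 5 reads in 48 h replicate 3 and 0 elsewhere.

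Sox9 (ENSMUSG00000000567.5; chromosome 11, 112782224 to 112787760, plus strand) had 530, 228 and 467 reads at 0 h and 662, 505 and 652 reads at 48 h, and was therefore read well above the floor in all libraries of undamaged liver. The 0 h libraries spread widely, with replicate 2 low, and in CPM the highest at 0 h (18.1) exceeded the lowest at 48 h (14.1). The means were 13.2 ± 5.41 (SD, n = 3) and 17.5 ± 2.94 (SD, n = 3) CPM. The log2 fold change was 0.41, with a 95% interval of -0.18 to 1.0 (adjusted p = 0.249 in edgeR's test), so the difference did not exceed the spread between replicates, and an increase as large as the upper end of this interval cannot be set aside. Without the low 0 h replicate 2 it was 0.11.

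Cd44 (ENSMUSG00000005087.17; chromosome 2, 102811141 to 102901665, minus strand), the receptor of the matrix polysaccharide hyaluronan, had 75, 129 and 155 reads at 0 h and 176, 198 and 195 at 48 h. In CPM every 48 h library exceeded every 0 h library, by a small margin and with closely spaced values at 48 h. The means were 3.80 ± 1.1 (SD, n = 3) and 5.45 ± 0.190 (SD, n = 3) CPM, with a log2 fold change of 0.52 (95% interval 0.03 to 1.0) that did not pass the threshold (adjusted p = 0.0828 in edgeR's test). Scaling by library size without TMM factors shifted the median log2 fold change of all genes from -0.0033 to 0.20, and Cd44 was then called at 0.72 (adjusted p = 0.0216). Leukocytes express Cd44 strongly, and the 9 leukocyte markers summed to 3.37 to 4.73 CPM at 0 h and 3.24 to 4.90 CPM at 48 h, with 0 called in either direction of the 2 tested, while 7, among them the T cell gene Cd3e and the B cell gene Ms4a1, had too few reads to test. Their part was not tested.

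Cd24a (ENSMUSG00000047139.9; chromosome 10, 43578284 to 43584265, plus strand), which encodes a small glycosylated surface protein, had 1, 6 and 3 reads at 0 h and 14, 11 and 5 at 48 h. It did not pass the filter on low counts, and the libraries of the time points overlapped. Pooled reads numbered 10 and 30, a ratio of 2.69 with an exact 95% counting interval of 1.28 to 6.17, which leaves out the spread between mice. In an edgeR fit with no filter the adjusted p was 0.12. The Cd24a transcript is at least 90% identical to transcripts of 2 other annotated genes over 200 bases or more, so reads from these stretches may have been lost as multiply aligned. None of the other 8 markers had such a partner in the annotation.

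The defining markers of mature ducts were close to absent. Krt7 (ENSMUSG00000023039.17; chromosome 15, 101411043 to 101430313, plus strand) had 2, 1 and 0 reads at 0 h and 0, 0 and 1 at 48 h. Krt19 (ENSMUSG00000020911.14; chromosome 11, 100140810 to 100148665, minus strand) had 1, 4 and 0 reads at 0 h and 0 in each library at 48 h. Epcam (ENSMUSG00000045394.9; chromosome 17, 87635979 to 87651129, plus strand) had 0, 3 and 1 reads at 0 h and 0, 0 and 1 at 48 h. Only Krt19 in 0 h replicate 2 exceeded 3 reads, and the same library had most of the Epcam reads. Together these genes had 3, 8 and 1 reads at 0 h and 0, 0 and 2 at 48 h. Levels under the floor of 0.0840 to 0.102 CPM cannot be told from 0 in a single library, so no fold change is given for them. In the edgeR fit with no filter their adjusted p-values were 0.56 (Krt7), 0.136 (Krt19) and 0.48 (Epcam).

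On the scale of CPM per kb of exon, the order of the markers at 0 h was Sox9 (3.18 ± 1.31, SD, n = 3), Tnfrsf12a (1.94 ± 0.204), Spp1 (0.993 ± 0.504) and Cd44 (0.560 ± 0.163), and then the markers with 10 reads or fewer in all 3 libraries together. Sox9 and Tnfrsf12a overlapped in this order, as did Spp1 and Cd44, while Tnfrsf12a was above Spp1 in every library. At 48 h Tnfrsf12a came first (17.2 ± 4.44, SD, n = 3), above Sox9 (4.23 ± 0.712) in every library. Sox9 and Spp1 (2.82 ± 1.56) overlapped, both lay above Cd44 (0.804 ± 0.0280), and Cd24a and Prom1 overlapped at the low end (0.112 ± 0.0533 and 0.111 ± 0.0559). Of the summed per-length level of the 9 genes, Tnfrsf12a made up 23.3% to 38.0% in the 0 h libraries and 60.0% to 72.3% in the 48 h libraries. Sox9 made up 31.4% to 53.0% at 0 h and 15.4% to 18.2% at 48 h.

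**Figure D2:**
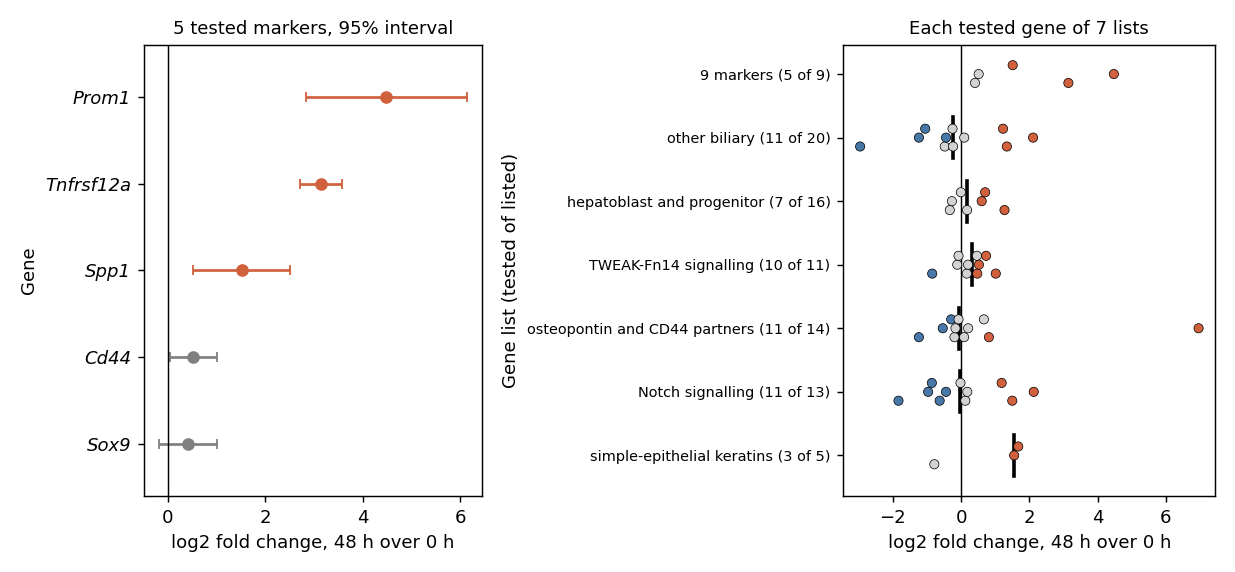
Left, log2 fold change (48 h over 0 h) of the 5 markers with enough reads to test, with 95% intervals from the edgeR fit and called increases in orange. Right, the same value for each tested gene of 7 lists, with called increases in orange, called decreases in blue, other genes in grey and a black bar at the median of each list other than the 9 markers. Tnfrsf12a has the narrowest interval of the 3 called markers, and Prom1 passed the filter on low counts through its 48 h libraries alone. The other biliary and Notch genes spread to both sides of 0.

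The promoters of the called markers are shown because these genes rose in the same libraries. RefSeq promoter windows of GRCm38.p6 were matched by symbol for 6 of the 9 markers, and the 250 bases upstream of the start closest to the annotated gene start are printed 5′ to 3′ on the strand of the gene. Capitals mark matches, on either strand, to 5 short motifs, namely AP-1 (TGANTCA), TEAD (GGAATG), RBPJ, the DNA-binding partner of Notch (TGGGAA), NF-kB (GGG and CC with any 5 bases between) and the TATA box (TATAAA).
Tnfrsf12a, chr17:23677450-23677699, minus strand: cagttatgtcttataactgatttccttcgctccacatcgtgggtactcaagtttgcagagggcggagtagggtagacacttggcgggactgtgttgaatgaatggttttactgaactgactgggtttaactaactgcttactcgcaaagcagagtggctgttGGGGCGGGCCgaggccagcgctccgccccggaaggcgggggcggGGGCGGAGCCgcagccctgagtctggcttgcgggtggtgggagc
Prom1, chr5:44101737-44101986, minus strand: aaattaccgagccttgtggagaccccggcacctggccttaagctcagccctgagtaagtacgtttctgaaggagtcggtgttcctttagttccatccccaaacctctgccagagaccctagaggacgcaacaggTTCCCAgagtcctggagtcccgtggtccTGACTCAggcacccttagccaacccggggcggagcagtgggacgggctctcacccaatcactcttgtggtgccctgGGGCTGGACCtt
Spp1, chr5:104434861-104435110, plus strand: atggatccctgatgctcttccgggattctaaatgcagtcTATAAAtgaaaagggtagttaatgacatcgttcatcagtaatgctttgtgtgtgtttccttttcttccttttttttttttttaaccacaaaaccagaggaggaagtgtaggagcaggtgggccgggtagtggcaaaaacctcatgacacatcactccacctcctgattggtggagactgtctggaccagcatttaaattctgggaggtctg
The window of Tnfrsf12a held 2 matches to the NF-kB letters. That of Spp1 held 1 match to the TATA box letters, beginning 211 bases upstream of the start. The window of Prom1 held 1 match each to AP-1, RBPJ and NF-kB. None of the matches overlapped another. Over 32851 promoter windows of the same length, 6.75% held the AP-1 letters, 12.6% TEAD, 21.6% RBPJ, 45.8% NF-kB and 12.4% the TATA box. These matches describe the letters only, and no motif was shared by all 3 windows.

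Keratins 8 and 18, the pair that forms the intermediate filaments of hepatocytes and of other simple epithelia, were abundant where the ductal keratins were not. Krt8 had 4721, 3123 and 5335 reads at 0 h and 17974, 12658 and 12392 at 48 h, an increase of 1.56 ± 0.220 (standard error) on the log2 scale (adjusted p = 0.000306). Krt18 rose by 1.68 ± 0.267 (standard error) on that scale (adjusted p = 0.00067). Per kb of exon, Krt18 reached 248 ± 95.8 and Krt8 212 ± 53.0 (SD, n = 3) at 48 h, while Krt7 and Krt19 stood at 0.00135 ± 0.00234 and 0. Of the 5 simple-epithelial keratins listed beside the markers, 3 were tested, these 2 were higher and Krt23 was not called (log2 fold change -0.78, adjusted p = 0.235), with a median log2 fold change of 1.56 against -0.0033 over all genes tested. Krt20 and Krt80 had at most 6 reads in any library. An annotated copy of Krt8, Krt8-ps, is 98.6% identical to it over 941 bases, and Gm5200 is 90.5% identical to Krt18 over 1267 bases, so some reads of Krt8 and Krt18 may have been lost or shared.

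**Figure D3:**
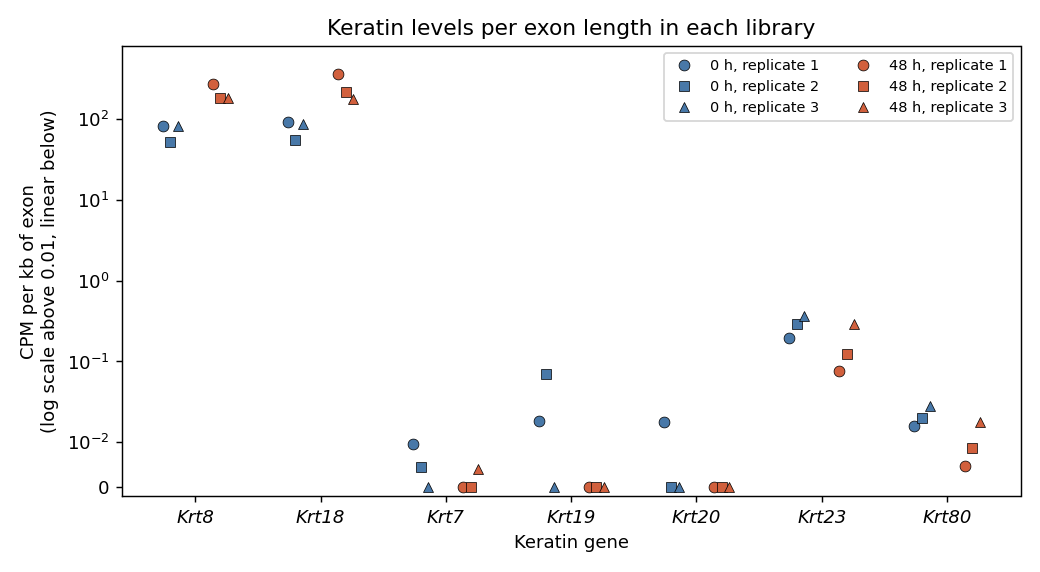
CPM per kb of exon (log axis above 0.01, linear below) of 7 keratin genes in each library at 0 h (blue) and 48 h (orange). Krt8 and Krt18 lie between 51.4 and 356.5 in every library and are higher at 48 h, while the ductal keratins Krt7 and Krt19 stay under 0.07 in all 6.

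Among 20 other genes of the biliary epithelium, 9 had too few reads to test, 3 were higher, 4 were lower and 4 were not called. Their median log2 fold change was -0.25. Over all genes tested, 21.4% were called higher and 19.3% lower, and the list counts here and below are to be read beside these shares. The bile duct chloride channel Cftr and the tetraspanin Tspan8 had at most 2 reads in any library, and the secretin receptor Sctr had 0 in each 0 h library and 3, 3 and 4 at 48 h. Elf3, an epithelial transcription factor, rose by a log2 fold change of 1.34 (adjusted p = 0.00308) to 1.82 ± 0.433 CPM, and Bicc1, an RNA-binding protein of tubular epithelia, by 1.23 (adjusted p = 0.00846). Muc1, a membrane mucin, rose by 2.11 (adjusted p = 0.00072) from 9, 7 and 5 reads to 32, 35 and 36. Onecut1, a transcription factor of hepatoblasts, hepatocytes and ducts, fell by 1.23 on the log2 scale (adjusted p = 0.016), from 148 ± 57.5 to 63.1 ± 31.6 CPM. Gm20649 on the same strand overlaps 52.8% of its exon bases. The call of Onecut1 was lost without 0 h replicate 1 (log2 fold change -0.88, adjusted p = 0.0675) and without 48 h replicate 2 (-1.16, adjusted p = 0.0552). Pkhd1, the fibrocystin gene of primary cilia, fell by 1.05 (adjusted p = 2.81e-05), and Dcdc2a, another ciliary gene, fell by 2.95 (adjusted p = 0.000339) from 19, 43 and 31 reads to 4, 4 and 5. Cdh1 (E-cadherin) had a log2 fold change of -0.44 (adjusted p = 0.0389), a call that was lost without 0 h replicate 1 or 3 or 48 h replicate 2 or 3 (adjusted p = 0.0831 to 0.16) and with library size only. Without 0 h replicate 1, 0 h replicate 3 or 48 h replicate 2, 2 of the 20 genes were called lower instead of 4. Muc1 and Dcdc2a were named after their values were seen, and each passed the filter on low counts through 1 time point alone (Muc1 at 48 h, Dcdc2a at 0 h), so each had to differ to be tested.

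Of 16 genes of hepatoblasts and liver progenitor cells, 9 had too few reads to test, 3 were higher and 0 were lower, with a median log2 fold change of 0.18. Among the 7 tested, the number lower was also 0 at an unadjusted p under 0.05 and by DESeq2 and limma-voom. Gata6, a transcription factor of endoderm, rose from 9.17 ± 0.690 to 22.2 ± 3.73 CPM (log2 fold change 1.27, adjusted p = 8.09e-05), and Axin2, a target and inhibitor of Wnt signalling, from 10.3 ± 1.69 to 16.9 ± 1.68 CPM (0.71, adjusted p = 0.00364). Afp, the fetal counterpart of albumin, had 90, 159 and 144 reads at 0 h and 223, 212 and 229 at 48 h, a log2 fold change of 0.61 (adjusted p = 0.0317). That call was lost in 5 of the 6 fits that left out 1 library (all but the fit without 0 h replicate 2), with adjusted p-values of 0.06 to 0.0997, and with upper-quartile normalization of all 6 libraries (0.52, adjusted p = 0.0695). The fetal genes Igf2 and Dlk1 had at most 3 reads in any library, where Gm49394 on the same strand overlaps 62.8% of the exon bases of Igf2 and reads there may not have been assigned to either gene, and H19 had 1, 0 and 4 at 0 h and 14, 7 and 1 at 48 h.

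The ligand of Fn14 rose with its receptor. Tnfsf12, which encodes TWEAK, had 305, 297 and 396 reads at 0 h and 675, 736 and 840 at 48 h, without overlap, an increase of 1.02 ± 0.131 (standard error) on the log2 scale (adjusted p = 0.000168). The readthrough gene Tnfsfm13 shares 48.3% of the exon bases of Tnfsf12 and had 38 to 52 reads at 0 h and 101 to 121 at 48 h. Of the 11 genes of this pathway listed beside the markers, 10 were tested, 4 were higher and Birc3 was lower, with a median log2 fold change of 0.34. The adaptor Traf3, named after its value was seen, rose by 0.48 (adjusted p = 0.004) and the adaptor Traf2 by 0.52 (adjusted p = 0.0179). Map3k14, the kinase of the noncanonical NF-kB pathway, rose by 0.73 (adjusted p = 0.0192), and Birc3, an inhibitor of apoptosis, fell by 0.84 (adjusted p = 0.002). The call of Traf2 was lost without 0 h replicate 1 or 3 or 48 h replicate 1 (adjusted p = 0.0554 to 0.0793). That of Map3k14 was lost without 0 h replicate 1 or 48 h replicate 3 (adjusted p = 0.0724 and 0.0779). Without 0 h replicate 1 the number of these genes called higher was 2.

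Osteopontin and CD44 act through integrins and hyaluronan, and of 14 such partners 11 were tested, 2 were higher and 3 were lower, with a median log2 fold change of -0.07. The shares over all genes tested were 21.4% higher and 19.3% lower. The largest increase was in Hmmr, a hyaluronan receptor that is also a spindle protein of dividing cells, with 6, 16 and 16 reads at 0 h and 1856, 2089 and 1368 at 48 h (log2 fold change 6.96, adjusted p = 4.73e-08). Itga5, the fibronectin receptor subunit, rose by 0.82 (adjusted p = 0.00152), and Hyal1, a lysosomal hyaluronidase, fell by 1.23 (adjusted p = 1.58e-05), although Hyal3 and Naa80 on the same strand overlap 51.9% of its exon bases. The called decreases of Hyal2 (log2 fold change -0.29, adjusted p = 0.0338) and Itga9 (-0.53, adjusted p = 0.0428) were lost with library size only, that of Itga9 also by limma-voom (adjusted p = 0.0631) and that of Hyal2 with no filter (adjusted p = 0.0756). They were also lost without 0 h replicate 3 or any 1 of the 48 h libraries, when 1 gene of the list was called lower, and Itga9 without 0 h replicate 2 as well. With 1 library left out, their lost calls had adjusted p-values of 0.0636 to 0.132.

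Notch signalling directs hepatoblasts toward the ductal fate and acts upstream of Sox9. Of 13 genes of the pathway, 11 were tested, 3 were higher and 5 were lower, and their median log2 fold change was -0.02. Hes1, a target gene of the pathway, had 163, 160 and 169 reads at 0 h and 557, 927 and 934 at 48 h (log2 fold change 2.13, adjusted p = 1.26e-05), and the ligand Dll1, of whose exon bases 20.5% are overlapped by A930024N18Rik on the other strand, rose by 1.5 (adjusted p = 5.83e-05). Notch3, a receptor of mural cells, rose by 1.19 (adjusted p = 0.0167), with 160, 95 and 274 reads at 48 h, and was not called without 48 h replicate 3 (0.74, adjusted p = 0.0642) or without 0 h replicate 1 or 3 (adjusted p = 0.054 and 0.0538). Notch2, the receptor with the most reads, had a log2 fold change of -0.44 (adjusted p = 0.00785), which was not called with library size only (-0.24, adjusted p = 0.109), and the coactivator Maml1 fell by 0.63 (adjusted p = 0.00548). Notch2 and Maml1 were named after their values were seen. Dll4, Notch4 and Heyl, which are genes of endothelial and mural cells, had log2 fold changes of -1.83, -0.96 and -0.85 (adjusted p = 0.000687, 0.00694 and 0.0318), and the call of Heyl was lost with library size only and in each fit without 1 library other than 0 h replicate 1 (adjusted p = 0.0562 to 0.117). The 9 sinusoidal endothelial markers all fell and summed to 226 to 353 CPM at 0 h and 165 to 180 CPM at 48 h, and their part in these decreases was not tested. The 11 markers of stellate cells and portal fibroblasts summed to 66.7 to 109 CPM at 0 h and 62.2 to 74.8 CPM at 48 h. Of the 9 tested, Eln (log2 fold change 2.84) and Col1a1 (2.30) were higher, Reln (-0.82) was lower and 6 were not called, and their part in the values of Notch3 and Heyl was not tested. In such bulk libraries, fewer cells of a type and less RNA per cell cannot be told apart.

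The labelled cell type was checked with lists of markers. The 10 hepatocyte markers summed to 101390 to 118810 CPM at 0 h and 64249 to 74038 CPM at 48 h, with 4 lower and 0 higher, and each was read in every library. The 8 neutrophil markers summed to 0.0904 to 0.409 CPM at 0 h and 0.654 to 1.06 CPM at 48 h, with all 8 too low to test. Camp had 2, 3 and 0 reads at 0 h and 6, 19 and 26 at 48 h. Elane had 5, 1 and 3 reads at 0 h and 13, 16 and 8 at 48 h. The other 6 had at most 3 reads in any library. The 6 mesothelial markers, whose cells also carry keratins 7 and 19, summed to 0.0323 to 0.307 CPM at 0 h and 0.327 to 0.858 CPM at 48 h, with all 6 too low to test. The mesothelial gene Msln had 1 read in 1 library and 0 in the other 5, Wt1 had 2, 0 and 0 reads at 0 h and 1, 0 and 7 at 48 h, and Lrrn4 had 3, 0 and 3 at 0 h and 6, 15 and 17 at 48 h. The erythroid list of 7 genes summed to 58.0 to 89.3 CPM at 0 h and 19.8 to 41.2 CPM at 48 h, with 2 called lower (Alas2 and Klf1). Nearly all of each sum was Alas2, at 55.7 to 86.4 CPM at 0 h and 18.6 to 40.2 CPM at 48 h. The 4 globin genes of the list had at most 6 reads in any library.

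**Figure D4:**
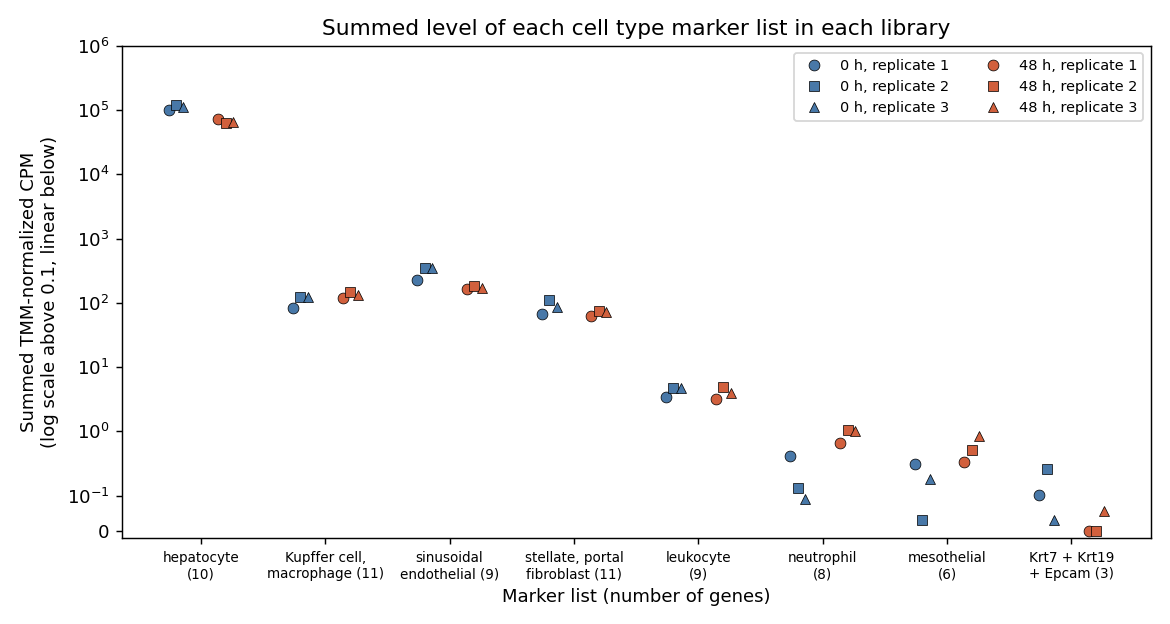
Summed TMM-normalized CPM (log axis above 0.1, linear below) of 7 lists of cell type markers, and of Krt7, Krt19 and Epcam together, in each library at 0 h (blue) and 48 h (orange). Hepatocyte markers lie at or above 64249 CPM in each library, and the 3 ductal markers together lie at or under 0.258 CPM.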

How the data were processed

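Counts per gene were analysed for 6 bulk RNA-Seq libraries, 3 at 0 h and 3 at 48 h after PHx, each taken to be 1 mouse as the study's methods describe, and grouped by the sample titles. The authors deposited raw counts of reads per gene, 1 library per file. The submitters' processing notes name FastQC 0.11.5, Trim Galore 0.6.4, STAR 2.6, HTSeq 0.12.4, DESeq2 and build mm10; the counting mode and strand setting are not given in the sources used here, so reads from opposite strands may be mixed. All 55450 gene identifiers matched GENCODE M21. Reads on no gene (24.3% to 32.7%) or ambiguous between genes (4.27% to 5.29%) were left out, and multiply aligned reads are listed as 0.

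A gene entered the test if 3 or more libraries had 10 or more counts. The quasi-likelihood test of edgeR 4.0.16 (R 4.3.3) was run with TMM factors and time point as the only term, and Benjamini-Hochberg adjustment covered all 17037 genes. Standard errors are the log2 fold change divided by the square root of the F statistic. The test was tried on simulated counts first. Alternatives were DESeq2 1.42.0, limma-voom (limma 3.58.1), other normalizations and filters, a replicate block, a fold threshold and leaving out each library. The genes and lists were chosen from general knowledge with earlier results of these data known. Named genes are the 9 markers, the 3 largest called increases and decreases of each list with a mean of at least 1 CPM, and Tnfsf12, Afp, Krt8 and Krt18, apart from genes said to be named later. Genes with too few reads to test, the cell type markers and Krt23 were also named after their values were seen; some genes of the lists are not reported here. Promoters are from RefSeq.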

Additional observations from a re-analysis of the deposited data

How the results depend on the processing

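Of the 14 counts of called genes (higher and lower, for the markers and the 6 other lists), the number of markers higher was 3 under each alternative run on all 6 libraries except library size only, which added Cd44 and gave 4, and 1 to 3 when 1 library was left out. The count of 3 includes Prom1, which passed the filter on low counts through its 48 h libraries alone. The number of markers lower was 0 throughout. A minimum change of 1 on the log2 scale left 1 progenitor gene higher, 1 gene of TWEAK signalling higher and 0 lower, 1 partner of osteopontin and CD44 higher and 1 lower, and 1 Notch gene lower, since that requirement removes small changes by its construction. Library size only left 3 Notch genes lower and 1 partner of osteopontin and CD44 lower. Leaving out 1 library gave 2 to 5 genes of TWEAK signalling higher, 1 to 3 partners of osteopontin and CD44 lower, and 2 to 4 other biliary genes lower. The other counts stayed within 1.5 times. None of the genes refitted under these alternatives (the 5 tested markers and the called genes named from the 6 lists) changed direction. With the replicate number as a block, 3 markers were higher and 1 partner of osteopontin and CD44 was lower, and no other count moved by over 1.5 times; the calls of Itga9 (adjusted p = 0.0526) and Hyal2 (adjusted p = 0.0835) were lost in that fit. Libraries with the same number correlated, in their deviations from the group mean, at 0.0335, -0.0674 and -0.138, so the numbers do not pair the samples. Krt7, Krt19, Epcam and Cd24a had too few reads to test at this depth.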
